A study of Mus musculus with 24 samples.

Results

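Leukocyte and inflammation miRNAs were followed in mouse liver: mmu-miR-223-3p, mmu-miR-223-5p, mmu-miR-142a-3p, mmu-miR-142a-5p, mmu-miR-150-5p, mmu-miR-155-5p, mmu-miR-146a-5p and mmu-miR-342-3p, named below without the species prefix. These 8 were chosen by name, for what is known of them in blood and immune cells, with earlier results of these data known. The table of mature miRNAs holds rows for 6 of the 8 among its 1908 names. All 6 passed the filter on low counts, which left 421 miRNAs for testing. Both arms of miR-142a were not analysed here; rows that carry the names miR-142-3p, miR-142-5p and miR-142b stand at 0 counts in each of the 24 libraries.

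Small RNA was sequenced from livers of C57Bl/6J mice, with 8 libraries in each of 3 groups. Mice of the AM132 and AM608 groups had been made obese on a high fat diet over 11 weeks and then received 3.3 mg/kg of a locked nucleic acid oligonucleotide into a vein on each of 3 days. The AM132 oligonucleotide is a 16-mer complementary to miR-132, the AM608 oligonucleotide is a 15-mer against the primate miRNA miR-608 and served as the control, and livers were taken 7 days after treatment. Mice of the RCD group were lean, of the same age and strain, ate regular chow, and no injection is named for them. AM132 against AM608 therefore compares 2 oligonucleotides in obese liver, while AM608 against RCD and AM132 against RCD differ in diet and in injection, which cannot be told apart. These last 2 comparisons share the RCD libraries, and the AM608 libraries also serve in 2 comparisons. Nothing in the labels ties a library to a named animal, so p-values measure the spread between libraries.

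A miRNA is a short RNA that guides Argonaute proteins to messenger RNAs, chiefly through its seed, bases 2 to 8. The liver is mostly hepatocytes by mass, but it also holds Kupffer cells, which are resident macrophages, and monocytes, neutrophils and lymphocytes that arrive with the blood. miR-223 is made in myeloid cells and is most abundant in neutrophils, miR-150 marks mature lymphocytes, miR-155 is induced when lymphocytes and macrophages are activated, and miR-146a is induced by NF-kB signalling and restrains it by targeting adaptor proteins of Toll-like receptor signalling. miR-342-3p is found in lymphoid and myeloid cells. In whole liver a lower level can mean fewer cells of a type or less RNA per cell, and these cannot be told apart.

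Mature sequences from RefSeq (GRCm38.p6) were found for 5 of the 6 miRNAs with rows, and are shown because reads of these miRNAs are told from other miRNAs by them; capitals mark the seed, and miR-146b-5p is added as the near-identical relative of miR-146a-5p.
miR-223-3p: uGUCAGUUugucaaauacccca
miR-223-5p: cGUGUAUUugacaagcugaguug
miR-155-5p: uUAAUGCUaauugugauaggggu
miR-146a-5p: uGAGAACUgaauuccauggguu
miR-342-3p: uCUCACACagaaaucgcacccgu
miR-146b-5p: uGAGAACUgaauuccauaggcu

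The seed of miR-146a-5p is shared by 1 of the 367 tested miRNAs with a RefSeq sequence, miR-146b-5p. The other 4 seeds occur in no other of these 367, and tested miRNAs without such a sequence were not searched. From the 5′ end, miR-146b-5p differs from miR-146a-5p at 2 bases, G18A and U21C. How reads of so close a pair were assigned is not given in the sources used here, so counts could have moved between the 2 names.

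The genes lie on 5 chromosomes (GRCm38, GENCODE annotation). Mir223 (chromosome X, 96242817 to 96242926, plus strand) lies in an exon of the noncoding gene F630028O10Rik. Mir155 (chromosome 16, 84714140 to 84714204, plus strand) lies in an exon of its noncoding host Mir155hg, and Mir342 (chromosome 12, 108658620 to 108658718, plus strand) in an intron of Evl, which codes for an actin regulator. Mir150 (chromosome 7, 45121757 to 45121821, plus strand) and Mir146, the gene of miR-146a (chromosome 11, 43374397 to 43374461, minus strand), overlap no other annotated gene.

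A library held between 5926983 and 8734721 miRNA reads in the AM132 group, between 6855571 and 8532049 in the AM608 group and between 5689143 and 8380591 in the RCD group. Levels below are CPM, counts per 1e6 counts of tested miRNAs after TMM scaling, a factor per library that centres the bulk of miRNAs. 3 RCD libraries stood apart. RCD 3 had a summed CPM of 11 neural miRNAs of 2864, against at most 546.8 in the other RCD libraries. That sum was 419.7 to 542.1 over the AM132 libraries and 510.8 to 624.8 over those of AM608. Most of it in the obese groups was miR-128-3p, with means of 459.3 CPM in AM132 and 510.5 in AM608. In RCD 3 miR-128-3p stood at 590.3 CPM, against a median of 413.8 in the other RCD libraries. The RCD 3 sum over 3 erythroid miRNAs was 1773, against at most 1078 in the other RCD libraries. The RCD 3 sum over 5 hepatocyte miRNAs was the lowest of the 24, at 263338 CPM, with the other 23 libraries at 322914 to 634259. RCD 5 and RCD 8 had unusual ratios of 3p to 5p arms, given below. Values without these libraries are given beside the results that they move.

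**Figure D1:**
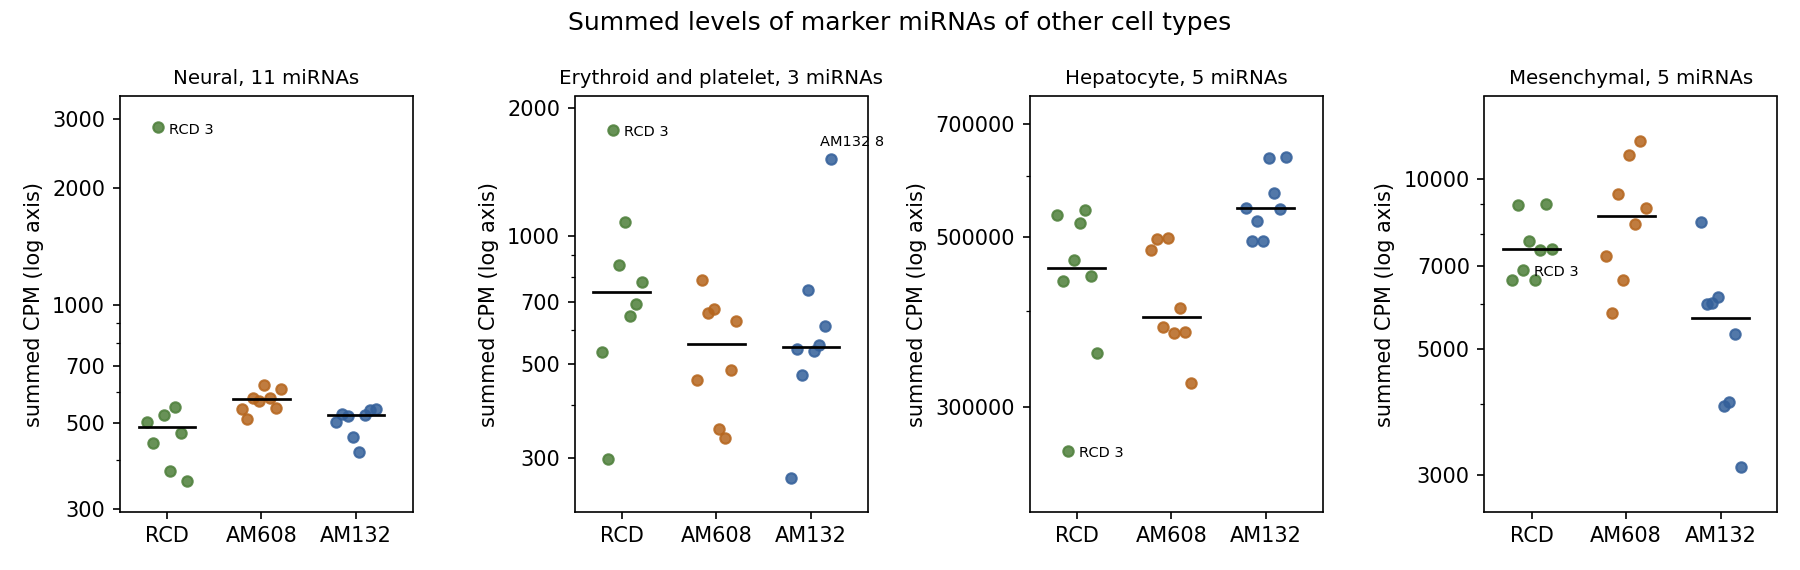
Summed CPM of marker miRNAs of other cell types, on log axes, for the 8 libraries of each group (points) with the group median (black line). RCD 3 is the highest library for neural and erythroid miRNAs and the lowest for hepatocyte miRNAs, and AM132 8 is the second highest for erythroid miRNAs at 1519.

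miR-146a-5p was the most abundant of the 6 in all 24 libraries. Its mean of 4828 CPM placed it at rank 27 of 421 tested miRNAs. miR-150-5p (mean 111.6 CPM, rank 125) and miR-342-3p (mean 108.6 CPM, rank 127) followed by mean, and their ranges over libraries overlapped. By median over the 24 libraries their order was reversed, at 78.0 CPM for miR-150-5p and 94.4 CPM for miR-342-3p. The mean of miR-150-5p includes RCD 3 at 734.9 CPM. A difference between miR-150-5p and miR-342-3p within libraries was not tested. miR-155-5p had a mean of 59.1 CPM (rank 143), miR-223-3p 32.8 CPM (rank 175) and miR-223-5p 18.9 CPM (rank 216). The ranges of these neighbours in the order also overlapped over libraries. Within each of the 24 libraries, however, miR-223-3p lay above miR-223-5p, with a lowest ratio of 1.10 in RCD 3. Mature miRNAs have nearly the same length, but ligation and amplification differ between sequences, so this order is one of read shares. The lowest count of any of the 6 in a library was 57 reads, for miR-223-5p.

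**Figure D2:**
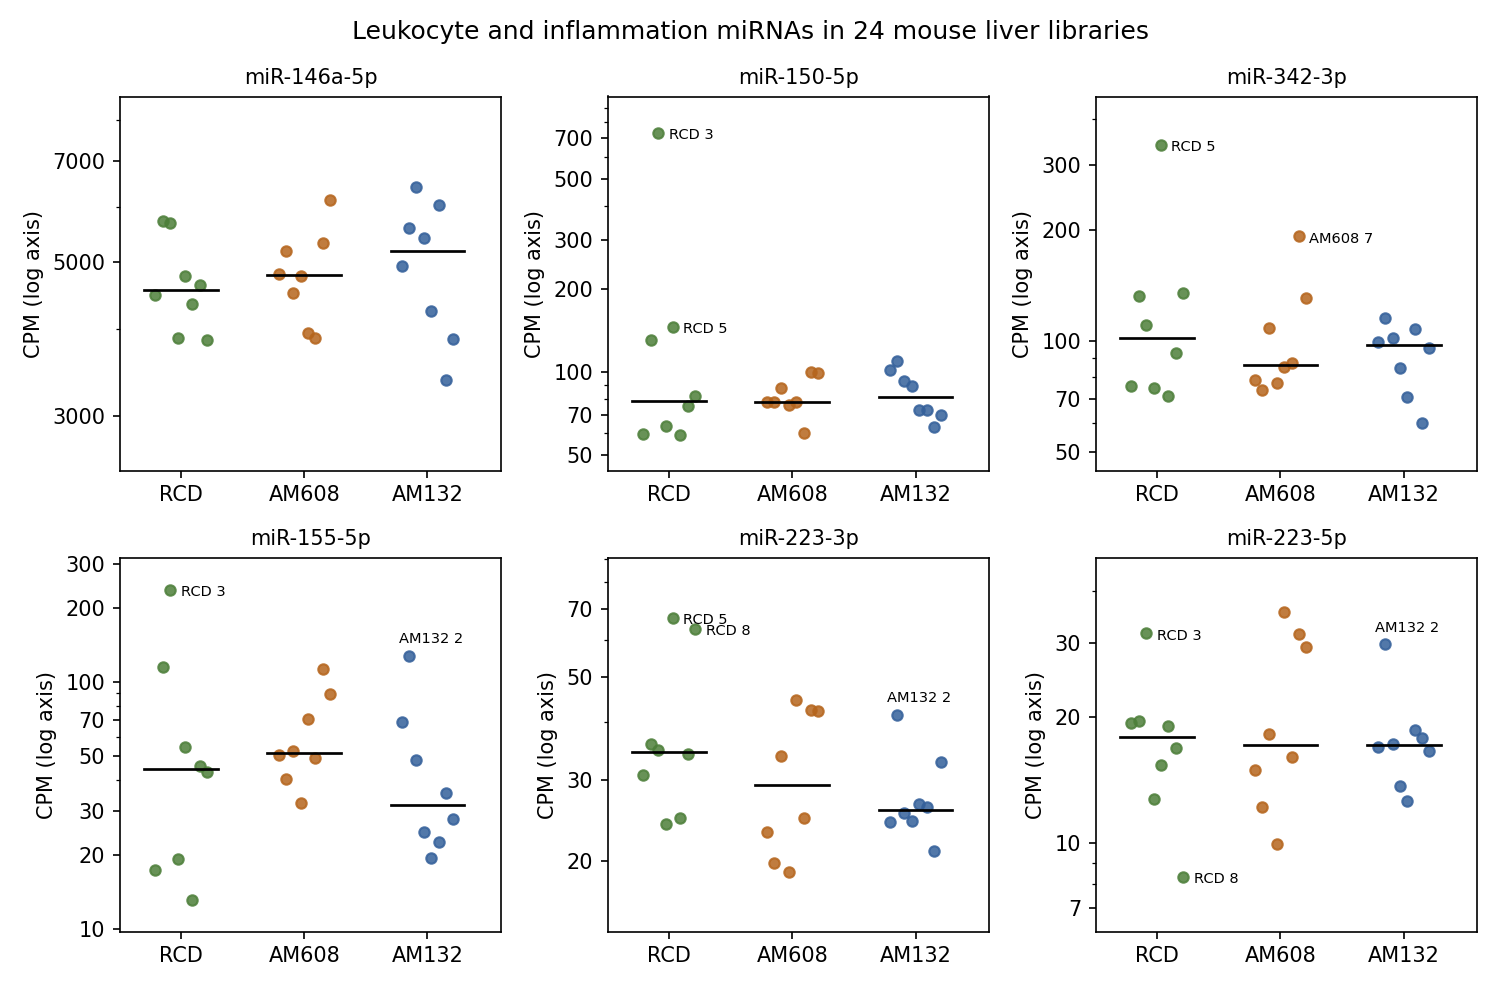
CPM of each miRNA on log axes for the 8 libraries of each group (points), with the group median (black line) and libraries that stand apart labelled. The 3 groups overlap in every panel, and single RCD libraries lie far above their group for miR-150-5p (734.9 CPM), miR-155-5p (236.1 CPM) and miR-342-3p (341.6 CPM).

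No member passed the test between the oligonucleotides against miR-132 and miR-608 in obese liver. Of the 6, 0 passed an adjusted p of 0.05 in edgeR's quasi-likelihood test, with 0 at an unadjusted p under 0.05 and 0 in DESeq2 or limma voom, where 12.4% of all tested miRNAs passed in edgeR. Values of the groups overlapped for all 6, whereas 6.65% of tested miRNAs did not overlap. The median log2 fold change of the 6 was -0.17, against 0.05 over all tested miRNAs.

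Between obese and lean liver, AM608 against RCD, 0 of the 6 passed in edgeR and 1 had an unadjusted p under 0.05, miR-150-5p. Among all tested miRNAs 28.7% passed, and 9.26% did not overlap, against 0 of the 6. The median log2 fold change was -0.22 for the 6 and -0.03 over all tested miRNAs. Without RCD 3 these medians were -0.0037 and 0.01, and without RCD 3, 5 and 8 together 0.12 and 0.03. RCD 3 or RCD 5 held the highest RCD value of miR-150-5p, miR-155-5p, miR-342-3p and both arms of miR-223. Leaving them out of RCD alone, with all AM608 libraries kept, raises those fold changes. The changed sign therefore cannot show whether the groups differ. DESeq2 called 1 of the 6, miR-150-5p, and limma voom 0.

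For AM132 against RCD, 0 of the 6 passed in edgeR and 2 had an unadjusted p under 0.05, miR-150-5p and miR-223-3p. Among all tested miRNAs 34.2% passed, and 8.79% did not overlap, against 0 of the 6. The median log2 fold change was -0.50 for the 6 and 0.03 over all tested miRNAs. For the 6 it was -0.033 without RCD 3, -0.25 without RCD 5 and 0.032 without RCD 3, 5 and 8 together. These libraries were again left out of RCD alone, which raises the values of the members they were highest for. DESeq2 again called miR-150-5p alone, and limma voom called 0.

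**Figure D3:**
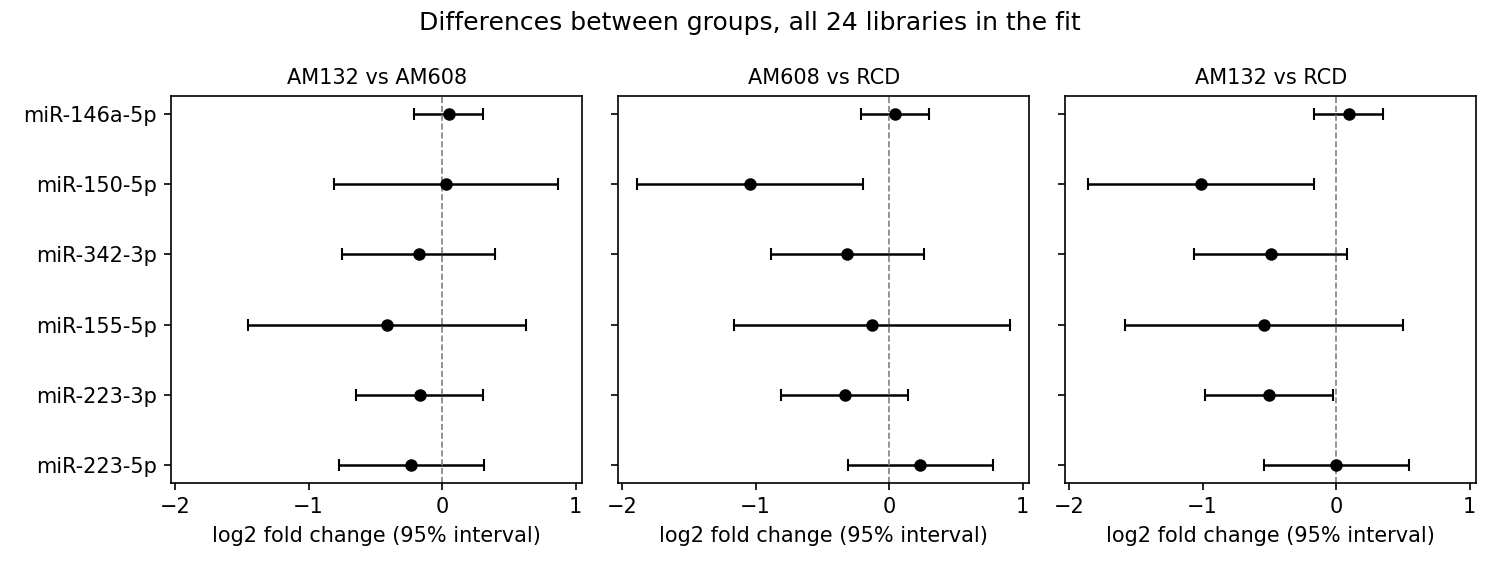
Log2 fold change of each miRNA (points) with its 95% interval (bars) in the 3 comparisons, from the edgeR fit to all 24 libraries. Intervals exclude 0 before adjustment for miR-150-5p in both comparisons with RCD and for miR-223-3p in AM132 against RCD, and miR-146a-5p has the narrowest intervals.

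miR-146a-5p, the NF-kB feedback miRNA, had the narrowest span over the 24 libraries. It ranged from 3375 to 6416 CPM in AM132 (median 5180), from 3890 to 6152 in AM608 (median 4784) and from 3853 to 5734 in RCD (median 4554). The highest library of the 24 was 1.90 times the lowest, where the span of the other 5 was 3.53 times or more. Its means were 4991 ± 1076 CPM for AM132, 4821 ± 745 for AM608 and 4674 ± 717 for RCD (SD, n = 8 each).
The log2 fold change of miR-146a-5p was 0.05 for AM132 against AM608 (95% interval -0.21 to 0.31; edgeR adjusted p = 0.854). It was 0.04 for AM608 against RCD (-0.21 to 0.30; edgeR adjusted p = 0.805) and 0.09 for AM132 against RCD (-0.16 to 0.35; edgeR adjusted p = 0.568). Changes larger than these bounds are outside the intervals, and with library totals in place of TMM the values for AM132 took the other sign, -0.20 against AM608 and -0.10 against RCD. By SD of log2 CPM within a group, with rank 1 of 421 the most variable, miR-146a-5p ranked 189 in AM132, 231 in AM608 and 368 in RCD. Within AM132 its SD of 0.33 was above those of miR-150-5p (0.28), miR-223-3p (0.30) and miR-342-3p (0.32), so it was not the least variable of the 6 in that group.

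miR-150-5p, the miRNA of mature lymphocytes, lay at 63.2 to 109.3 CPM in AM132 (median 80.8) and at 60.2 to 100.1 CPM in AM608 (median 78.0). In RCD it ran from 59.3 to 734.9 CPM with a median of 78.7. The 3 medians lie close together, and the highest RCD value belongs to RCD 3, with RCD 5 next at 145.8 CPM. Group means were 83.9 ± 16.6, 82.1 ± 13.1 and 168.9 ± 231 CPM (SD, n = 8 each), and the RCD mean without RCD 3 was 88.0 ± 35.5 (SD, n = 7).
The fitted log2 fold change against RCD was -1.04 for AM608 (SE 0.410; edgeR adjusted p = 0.0597) and -1.01 for AM132 (SE 0.411; edgeR adjusted p = 0.0579), neither past the threshold. Without RCD 3 the log2 fold change was -0.10 in both comparisons (edgeR adjusted p = 0.672 and 0.681). With limma voom it was -0.45 and -0.43 (limma adjusted p = 0.386 and 0.387). Without any 1 of RCD 1, 4, 6, 7 or 8, with RCD 3 still in, miR-150-5p did pass in both comparisons. For AM132 against AM608, which uses no RCD library in the contrast, the log2 fold change was 0.03 (95% interval -0.81 to 0.87; edgeR adjusted p = 0.966).

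RCD 3 was high for several of these miRNAs, and not in equal measure. Against the median of the other 7 RCD libraries, its level was 9.74 times for miR-150-5p and 5.45 times for miR-155-5p. It was 1.87 times for miR-223-5p, 1.27 times for miR-146a-5p, 1.198 times for miR-342-3p and 1.02 times for miR-223-3p. The lymphocyte miRNA and the activation miRNA thus stood out in that library, while the main product of the myeloid miR-223 lay at the level of its group. In the same library 2 neural miRNAs, miR-218-5p and miR-9-5p, stood at 1389 and 529.7 CPM against medians of 10.3 and 20.4 in the other RCD libraries. Not every neural marker was high there. miR-129-1-3p stood at 0.84 CPM against a median of 1.37, and miR-137-3p, at 15.2 CPM, lay under the highest other RCD library (18.95). The miR-9-5p median of 20.4 CPM in RCD without RCD 3 was itself above the medians of AM132 (2.27) and AM608 (3.88). All 11 neural markers had a count in the RCD group. At least 1 neural marker was at 0 in each obese group (miR-124-3p in AM132 and miR-153-3p in AM608). The part of the neural and erythroid signal in the miR-150-5p and miR-155-5p levels was not tested.

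miR-155-5p, induced in activated lymphocytes and macrophages, had the widest span of the 6 over the 24 libraries, with its highest library 17.95 times its lowest. It ranged from 19.4 to 127.9 CPM in AM132 (median 31.7), from 32.5 to 112.8 in AM608 (median 51.8) and from 13.2 to 236.1 in RCD (median 44.5). The highest libraries were AM132 2, AM608 7 and RCD 3, and the groups overlapped almost wholly. By SD of log2 CPM it ranked 17 of 421 in AM132, 55 in AM608 and 17 in RCD, and 10 in RCD without RCD 3, so it was among the most variable tested miRNAs also without that library. Within AM608 miR-223-5p was more variable, with an SD of 0.67 (rank 32) against 0.59 for miR-155-5p.
Its log2 fold changes carried wide intervals: -0.41 for AM132 against AM608 (-1.45 to 0.63; edgeR adjusted p = 0.698), -0.13 for AM608 against RCD (-1.16 to 0.91; edgeR adjusted p = 0.855) and -0.54 for AM132 against RCD (-1.58 to 0.50; edgeR adjusted p = 0.419). Without RCD 3 the values against RCD were 0.50 for AM608 and 0.04 for AM132, so both signs changed. Of 24 fits that each left out 1 library, 22 kept the sign for AM608 against RCD and 23 for AM132 against RCD. With RCD 3 kept, AM608 against RCD was also above 0 with limma voom and with the replicate block, as given below. That sign therefore depended on the method as well. Without AM132 2 the values for AM132 were -0.86 against AM608 and -0.96 against RCD.

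miR-223-3p, the main product of the myeloid miR-223 gene, ranged from 21.1 to 41.4 CPM in AM132 (median 25.8), from 18.98 to 44.6 in AM608 (median 29.2) and from 24.03 to 67.0 in RCD (median 34.4). The 2 highest libraries of all were RCD 5 at 67.0 CPM and RCD 8 at 63.6 CPM. Means were 27.8 ± 6.42, 31.2 ± 10.8 and 39.3 ± 16.6 CPM (SD, n = 8 each).
For miR-223-3p the log2 fold change was -0.50 for AM132 against RCD (SE 0.231; 95% interval -0.98 to -0.03; edgeR adjusted p = 0.0914) and -0.33 for AM608 against RCD (SE 0.230; edgeR adjusted p = 0.294). It was -0.17 for AM132 against AM608 (95% interval -0.65 to 0.31; edgeR adjusted p = 0.734). Without AM132 2, the highest AM132 library, AM132 against RCD passed at -0.62 (edgeR adjusted p = 0.0488). Without RCD 5, the highest of all, it was -0.37 (edgeR adjusted p = 0.209), and without RCD 8 -0.39 (edgeR adjusted p = 0.190). AM608 against RCD was -0.16 without RCD 5 and -0.18 without RCD 8. Without RCD 3, 5 and 8 together, AM608 against RCD was 0.04.

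The AM608 group held 3 libraries with high miR-223-3p. AM608 5, 7 and 8 had 44.6, 42.4 and 42.2 CPM, and the other 5 had at most 33.7. The same 3 libraries were highest for miR-223-5p, at 35.5, 31.6 and 29.4 CPM against at most 18.2, and for miR-155-5p, at 70.8, 112.8 and 89.3 CPM against at most 52.8. Their summed hepatocyte miRNAs, at 374582, 375680 and 322914 CPM, were the 3 lowest of the 8 AM608 libraries, where the other 5 held 382287 to 498691. Their summed mesenchymal miRNAs, at 11007, 11623 and 8869 CPM, ranked 2, 1 and 4 from the top of the group, with the others at 5792 to 9384. The part of those cells in the miR-223 and miR-155 levels was not tested.

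miR-223-5p, from the other arm of the same hairpin, ranged from 12.6 to 29.8 CPM in AM132 (median 17.1), from 9.99 to 35.5 in AM608 (median 17.2) and from 8.31 to 31.7 in RCD (median 17.98). The medians of the 3 groups nearly coincide, and AM608 spread the most. Its log2 fold changes were -0.23 for AM132 against AM608 (95% interval -0.77 to 0.31), 0.23 for AM608 against RCD (-0.31 to 0.77) and 0.00 for AM132 against RCD (-0.54 to 0.55), with edgeR adjusted p = 0.671, 0.542 and 0.994. AM608 against RCD was 0.40 without RCD 3 (edgeR adjusted p = 0.215) and 0.086 without AM608 5 (edgeR adjusted p = 0.820).

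miR-342-3p, of lymphoid and myeloid cells, ranged from 60.3 to 115.8 CPM in AM132 (median 98.0), from 73.6 to 192.6 in AM608 (median 86.3) and from 71.2 to 341.6 in RCD (median 101.9). The highest AM608 library was AM608 7; the highest RCD library was RCD 5, with RCD 8 next at 135.0 CPM. Log2 fold changes were -0.18 for AM132 against AM608 (95% interval -0.75 to 0.40; edgeR adjusted p = 0.769), -0.31 for AM608 against RCD (-0.88 to 0.26; edgeR adjusted p = 0.420) and -0.49 for AM132 against RCD (-1.06 to 0.08; edgeR adjusted p = 0.180). Without RCD 5 they were 0.09 for AM608 against RCD and -0.12 for AM132 against RCD.

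miR-223 and miR-342 are the 2 precursors of the set with both arms tested, and their arms can be compared within a library with no scaling. The hairpins are shown, with both mature arms in capitals (5p first), because the arm ratios set 2 libraries apart. Both hairpins are from RefSeq, on the plus strand of GRCm38.p6, at the positions given above.
Mir223: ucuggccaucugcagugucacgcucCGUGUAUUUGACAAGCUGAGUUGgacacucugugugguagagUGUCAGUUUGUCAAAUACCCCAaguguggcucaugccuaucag
Mir342: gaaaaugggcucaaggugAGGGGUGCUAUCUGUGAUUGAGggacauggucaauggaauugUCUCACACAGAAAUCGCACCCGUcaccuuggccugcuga

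The 3p to 5p ratio of miR-223 was 1.18 to 2.11 in AM132 (median 1.45), 1.26 to 1.90 in AM608 (median 1.54) and 1.10 to 7.65 in RCD (median 1.86). RCD 8 had 436 reads of the 3p arm against 57 of the 5p arm, and RCD 5 had 449 against 103, a ratio of 4.36. The other 6 RCD libraries lay at or under 2.01, inside the range of the obese groups but for the lowest. The ratio of miR-342 was 6.34 to 8.83 in AM132 (median 7.74), 5.76 to 10 in AM608 (median 8.54) and 5.67 to 40.2 in RCD (median 10.6). RCD 5 had 2291 reads of miR-342-3p against 57 of miR-342-5p, and RCD 8 had 926 against 41, a ratio of 22.6. The same 2 libraries thus had the highest ratio for both precursors.

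Group means of the log2 ratio did not differ beyond the spread between libraries. For miR-223 they were 0.64 ± 0.286 in AM132, 0.63 ± 0.207 in AM608 and 1.13 ± 0.934 in RCD, and for miR-342 2.93 ± 0.204, 3.00 ± 0.270 and 3.48 ± 0.988 (SD, n = 8 each). Over 6 two-sided exact permutation tests (all assignments enumerated), the miR-223 differences were 0.02 for AM132 against AM608, -0.50 for AM608 against RCD and -0.48 for AM132 against RCD, with raw p = 0.896, 0.193 and 0.216 and adjusted p = 0.896, 0.354 and 0.354. Those of miR-342 were -0.07, -0.48 and -0.55, with raw p = 0.536, 0.236 and 0.156 and adjusted p = 0.643, 0.354 and 0.354 in the same exact tests. Without RCD 5 and 8, the differences against RCD were -0.03 and -0.02 for miR-223 and -0.0040 and -0.08 for miR-342 (exact permutation, adjusted p = 0.985 each). RCD 5 and 8 were left out because their ratios were the highest, so these values cannot show whether the groups differ.

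RCD 5 and RCD 8 departed for many precursors, not for the immune ones alone. Across 107 precursors with both arms tested, the number whose log2 arm ratio lay more than 1 from its own median over the 24 libraries was 22 in RCD 5 and 27 in RCD 8, against 2 to 9 in the other RCD libraries, 2 to 8 in AM608 and 5 to 17 in AM132. By the SD of these deviations RCD 5 (0.937) and RCD 8 (0.913) stood apart from the other RCD libraries (0.321 to 0.523) and from AM608 (0.346 to 0.485), but not from AM132 (0.805 to 1.12), where 6 of 8 libraries lay above both. A high SD need not mean many departing precursors: AM132 1 had 0.805 with 5 more than 1 away, and AM608 5 had 0.452 with 8. The 107 include miR-132, the target of the AM132 oligonucleotide, and the SD was not computed without it. By size of that departure miR-223 ranked 16 in RCD 5 and 2 in RCD 8, and miR-342 ranked 5 and 14. miR-511, from an intron of the macrophage mannose receptor gene Mrc1, had a ratio of 3.32 in RCD 8 and of 0.357 in RCD 3, the highest and the lowest of the 24. What set the arm ratios of these libraries apart was not tested.

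**Figure D4:**
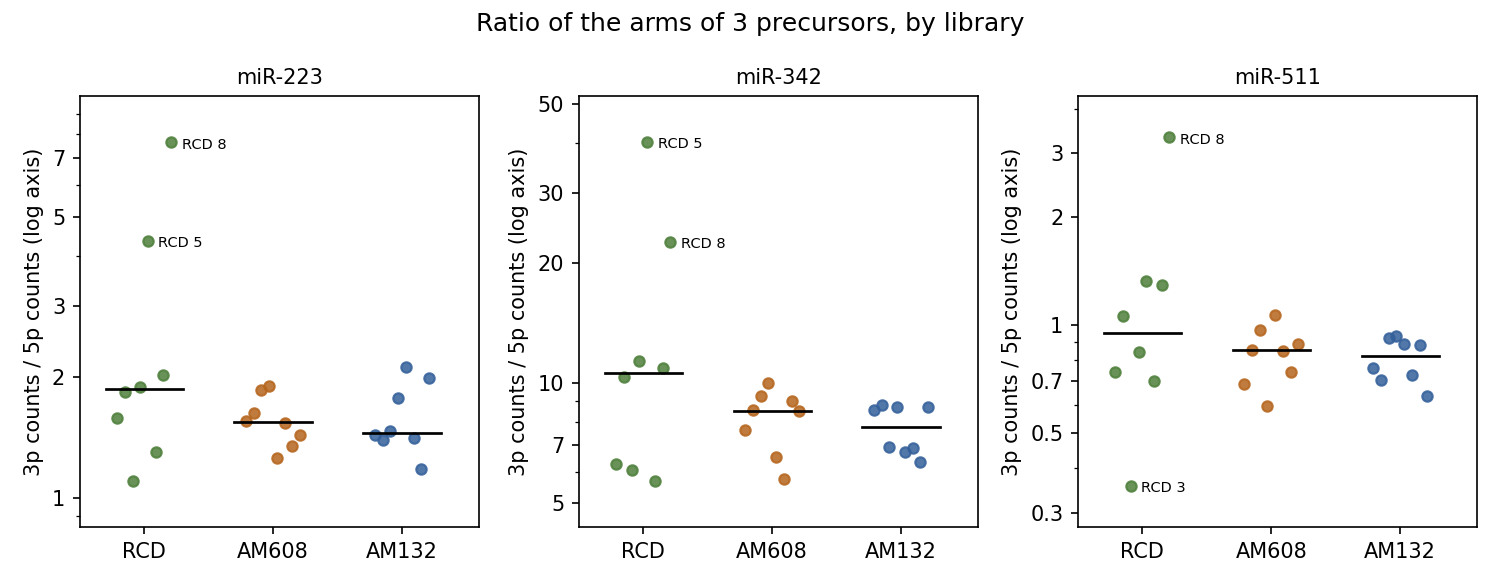
Ratio of 3p to 5p counts of miR-223, miR-342 and miR-511 on log axes for the 8 libraries of each group (points), with the group median (black line). RCD 5 and RCD 8 lie above all other libraries for miR-223 (4.36 and 7.65) and miR-342 (40.2 and 22.6).

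Within groups, rank correlations between the members were mostly above 0. All 15 pairs of the 6 were correlated within each group over 8 libraries (log2 CPM), 45 relations in all, with exact permutation p over all pairings adjusted over the 45. Spearman's rho was above 0 in 42 of 45, with a median of 0.62. Adjusted p passed for rho in 5 relations (0 in AM132, 3 in AM608 and 2 in RCD) and for Pearson's r in 6. All levels in a library share its scaling and its cell makeup, and differences between groups in these relations were not tested. The 45 relations are not independent, and both arms of the miR-223 hairpin are among the 6. The same relations over pairs of all tested miRNAs were not computed, so these values are not shown to be particular to the members.

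The 2 arms of miR-223 followed each other in AM608 (r = 0.98, rho = 1; exact permutation, adjusted p = 0.00112 and 0.00223), and r was 0.97 without the 2 libraries farthest from the median. In RCD, with the 2 libraries of unusual arm ratio, r was -0.42 and rho -0.07, and r was 0.59 without RCD 5 and 8. In AM132, r was 0.65 and rho 0.10, and r was -0.35 without AM132 2 and 8, so there the relation rested on those libraries.

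miR-155-5p followed both arms of miR-223 in AM608, with r = 0.90 and rho = 0.90 for miR-223-3p (exact permutation, adjusted p = 0.0123 and 0.0411) and r = 0.92 and rho = 0.90 for miR-223-5p (exact permutation, adjusted p = 0.0132 and 0.0411). Without the 2 farthest libraries r was 0.91 (AM608 4 and 5 left out) and 0.99 (AM608 5 and 7 left out), with AM608 8 still in both. The libraries AM608 5, 7 and 8 are the high ones for all 3. These 3 and the other 5 are each under 6 libraries, so the relation was not tested within either.
In RCD, miR-223-3p and miR-342-3p were high in the same libraries (r = 0.86, rho = 0.98; exact permutation, adjusted p = 0.00112 and 0.00893), with r = 0.84 without RCD 5 and 8. Likewise miR-150-5p and miR-155-5p were in RCD (r = 0.89, rho = 0.95; exact permutation, adjusted p = 0.00632 and 0.0171), with r = 0.97 without RCD 3 and 5, so this relation did not rest on RCD 3. In AM608, miR-155-5p and miR-342-3p passed for r alone (r = 0.86, exact permutation, adjusted p = 0.0335; rho = 0.86, adjusted p = 0.0804), and r was 0.45 without AM608 7 and 8.

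**Figure D5:**
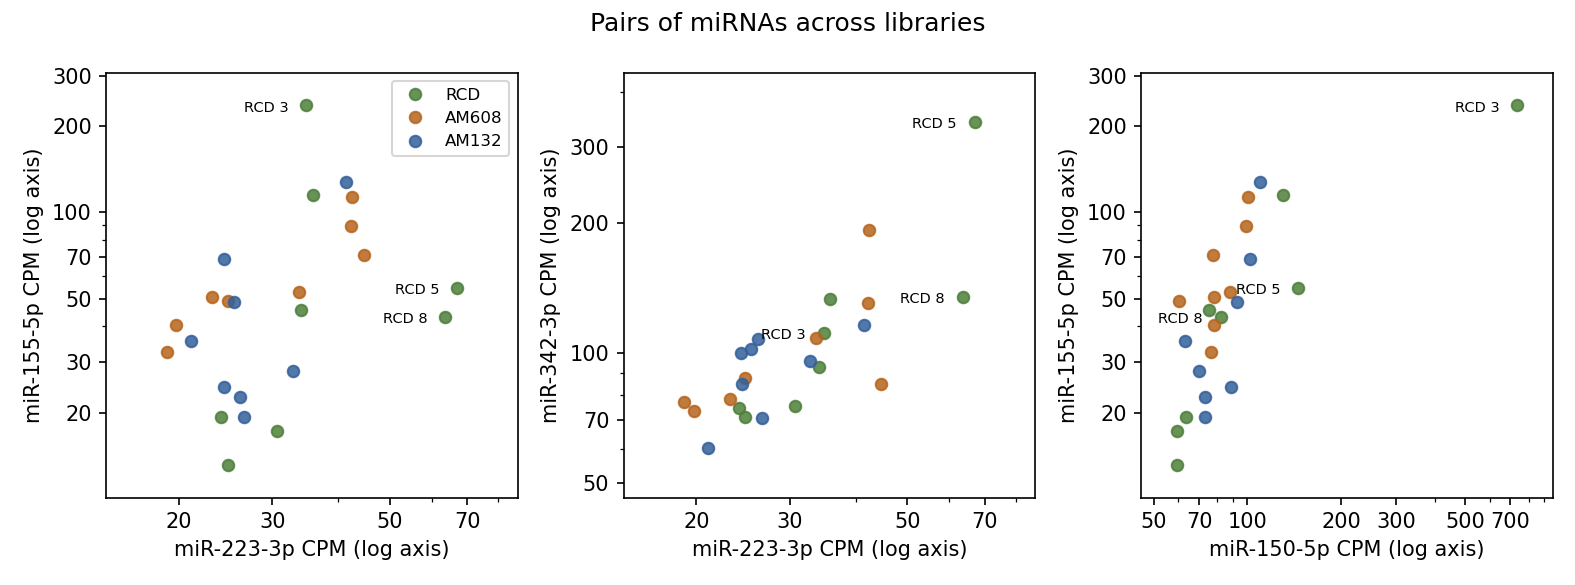
CPM of 3 pairs of miRNAs on log axes, each point 1 library, coloured by group with RCD 3, 5 and 8 labelled. RCD 3 lies at the top right for miR-150-5p and miR-155-5p (734.9 and 236.1 CPM), and RCD 5 at the top right for miR-223-3p and miR-342-3p (67.0 and 341.6 CPM).

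Among all tested miRNAs, the pattern most like that of miR-223-3p, by the mean over the 3 groups of the within-group rho (8 libraries each), was miR-342-3p at 0.74, followed by miR-181a-1-3p at 0.67 and miR-15b-3p at 0.66. For miR-150-5p it was miR-23a-3p at 0.79, then miR-155-5p at 0.78 and miR-342-3p at 0.73. Members of the set hold 3 of these 6 places, with miR-342-3p counted in both lists. Their rho values come from the same relations given above, and the places are a description with no test.

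Of 12 further miRNAs of immune cells, 10 were tested. In AM132 against AM608 edgeR called 0 of the 10 (1 at an unadjusted p under 0.05), in AM608 against RCD 1 higher and 0 lower, and in AM132 against RCD 0 (1 at an unadjusted p under 0.05). Over all tested miRNAs the shares called were 12.4%, 28.7% and 34.2%, so the count of 1 of 10 for AM608 against RCD is below the background. Their median log2 fold changes were -0.10, 0.09 and -0.04, against 0.05, -0.03 and 0.03 over all tested miRNAs. The called miRNA was miR-181a-2-3p, a minor arm of the miR-181 family that tunes lymphocyte receptor signalling, at 9.30 ± 1.99 CPM in AM608 and 6.67 ± 1.41 in RCD (SD, n = 8 each; log2 fold change 0.48, SE 0.157, edgeR adjusted p = 0.0226). Without AM608 5 its edgeR adjusted p was 0.0561, and without RCD 3, 5 and 8 together its log2 fold change was 0.33 (edgeR adjusted p = 0.176).

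miR-146b-5p, which shares its seed with miR-146a-5p, ranged from 138.5 to 246.2 CPM in AM132 (median 184.4), from 174.9 to 603.6 in AM608 (median 271.6) and from 127.7 to 439.5 in RCD (median 191.1). The highest libraries were AM608 7 and RCD 3. Its log2 fold change was -0.64 for AM132 against AM608 (edgeR adjusted p = 0.0785), 0.43 for AM608 against RCD (edgeR adjusted p = 0.182) and -0.21 for AM132 against RCD (edgeR adjusted p = 0.499). Without RCD 3, which adds to the pooled estimate of spread, it passed in AM132 against AM608 at -0.67 (edgeR adjusted p = 0.0132) and in AM608 against RCD at 0.65 (edgeR adjusted p = 0.0110). Without AM132 2, AM608 2, AM608 4 or RCD 8 it also passed in AM132 against AM608. Without AM608 7, its highest library, it was -0.45 for AM132 against AM608 (edgeR adjusted p = 0.198) and 0.22 for AM608 against RCD (edgeR adjusted p = 0.446).

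Of the 4 other arms of these precursors, 1 was tested, miR-342-5p, which edgeR called in 0 comparisons (0 also at an unadjusted p under 0.05). Its mean was 11.998 ± 2.30 CPM for AM132, 12.9 ± 4.42 for AM608 and 10.7 ± 4.08 for RCD (SD, n = 8 each). miR-150-3p, the passenger arm of miR-150, was below the filter, with at most 2.17 CPM in the obese groups, and reached 8.89 CPM (85 reads) in RCD 3. That library was therefore highest for both arms of miR-150.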

How the data were processed

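The values are raw read counts per mature miRNA as deposited by the authors, in 1 table of the 24 liver libraries, which has no unmapped columns (0). Of tools, the submitters' processing notes name FastQC; an aligner, a build and a counting rule are each not given in the sources used. Per the labels' protocols, libraries were made from 300 ng of RNA (RIN above 8.4) with the NEBNext small RNA kit. Reads without molecular identifiers are not independent molecules. Libraries were grouped by title. The test was run in edgeR 4.0.16 (R 4.3.3; robust quasi-likelihood fit, TMM factors, filterByExpr, group as the only term, all 24 libraries), with Benjamini-Hochberg adjustment over 421 miRNAs and a threshold of 0.05. limma 3.58.1 and DESeq2 1.42.0 were alternatives. Log2 CPM used a prior of 2 counts, and arm ratios a pseudocount of 0.5. The fit was tested on simulated data. All 84 pairs of libraries of 1 group differed by more than counting noise (chi-square over its degrees of freedom at least 27.6). Members and lists were chosen with earlier results of these data known. The text names every member, may name any miRNA of the lists of other arms and of other immune cells and names those that were called, and names the 3 most similar patterns of miR-223-3p and miR-150-5p. Planned relations to miR-142a-3p were replaced by all pairs of members after the table was seen; the arm ratio of miR-342 was added then too.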

Additional observations from a re-analysis of the deposited data

Results flagged for a closer look

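In 57 groups of 8 libraries (19 measures in each of the 3 groups), 13 had an extreme library by Dixon's 95% limit. That limit is on the gap to the neighbouring library as a share of the whole range. For normally distributed values chance flags about 1 in 20. The miRNA levels were taken as CPM and not as log2 CPM, so that share need not hold here, and the flags are descriptive. Of the 13, 8 were in RCD (5 in RCD 3, 2 in RCD 5 and 1 in RCD 8), 2 in AM608 and 3 in AM132.

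RCD 3 lay far above the other RCD libraries for miR-150-5p (734.9 CPM), miR-155-5p (236.1 CPM), miR-146b-5p (439.5 CPM), miR-181a-5p (940.4 CPM) and miR-181b-5p (221.2 CPM). RCD 5 did so for miR-342-3p (341.6 CPM) and miR-326-3p (29.7 CPM), and RCD 8 for miR-181c-5p (13.997 CPM). In AM132, library 2 stood out for miR-223-5p (29.8 CPM) and miR-155-5p (127.9 CPM) and library 8 for miR-326-3p (18.01 CPM). In AM608, library 7 stood out for miR-146b-5p (603.6 CPM) and library 5 for miR-326-3p (13.5 CPM).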

How the results depend on the processing

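In AM132 against AM608 no member passed in edgeR, limma or DESeq2 under any alternative run. Members called in AM608 against RCD were 1 with a filter of mean CPM of at least 10 and 1 with DESeq2 (miR-150-5p each time, -1.17 and -1.10). In AM132 against RCD they were 2 with library totals (miR-150-5p -1.39, miR-223-3p -0.71), 1 with the CPM filter and 1 with DESeq2 (miR-150-5p, -1.16 and -1.07); the cause was not tested. Leaving out 1 library at a time gave 0 to 1 in both comparisons with RCD and 0 to 0 in AM132 against AM608. All miRNAs called numbered 91 with library totals (8 higher; median shift -0.25) and 87 with only the 2 groups for AM132 against AM608, and 94 with the CPM filter for AM132 against RCD. With library totals 27 of 132 calls were higher for AM132 against RCD (median shift -0.19). Leaving out 1 library gave 44 to 64, 112 to 133 and 127 to 154.

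Values near 0 changed sign. For AM132 against RCD, miR-223-5p was -0.043 with RLE factors, -0.21 with library totals, -0.022 with no filter, -0.073 with the CPM filter, -0.033 with only the 2 groups, -0.044 with DESeq2 and -0.010 without RCD 3, 5 and 8. With library totals miR-150-5p was -0.22 and miR-146a-5p -0.20 for AM132 against AM608, and miR-146a-5p -0.10 for AM132 against RCD. With the CPM filter miR-146a-5p was -0.0097 for AM608 against RCD. Without RCD 3, 5 and 8 (chosen after seeing the data), AM608 against RCD was 0.040 for miR-223-3p, 0.049 for miR-150-5p, 0.53 for miR-155-5p and 0.19 for miR-342-3p, and AM132 against RCD was 0.065 for miR-150-5p and 0.093 for miR-155-5p. For miR-155-5p, AM608 against RCD was 0.38 with limma voom. The median over the 6 members was 0.12 for AM608 against RCD and 0.032 for AM132 against RCD without RCD 3, 5 and 8, and -0.45 for AM132 against AM608 with library totals; without 1 library at a time it ran from -0.60 to -0.033 for AM132 against RCD and from -0.34 to -0.0037 for AM608 against RCD.

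Without 1 library at a time, AM132 against AM608 ran from -0.065 to 0.081 for miR-150-5p, -0.022 to 0.12 for miR-146a-5p and -0.045 to 0.074 for the miR-223 arm ratio. AM608 against RCD ran from -0.28 to 0.50 for miR-155-5p, -0.028 to 0.11 for miR-146a-5p and -0.47 to 0.086 for miR-342-3p. AM132 against RCD ran from -0.15 to 0.14 for miR-223-5p and -0.96 to 0.035 for miR-155-5p. With CPM of library totals, 7 relations passed for rho and 15 for r. miR-181a-2-3p in AM608 against RCD did not pass with no filter (0.45) or only the 2 groups (0.44). In the other direction, some values of the members, miR-146b-5p and miR-181a-2-3p newly passed with their sign kept. These numbered 3 with DESeq2, 3 with library totals, 2 with the CPM filter and 1 with only the 2 groups.

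Replicate numbers gave no clear pairing of libraries. Over 24 same-numbered pairs the correlation of deviations ran from -0.42 to 0.40 (10 over 0.1). Its median was 0.05, against -0.02 over 168 pairs with different numbers. The libraries that correlated best with their own number in both other groups at once, a strict criterion, numbered 0. With the replicate block 47, 109 and 132 miRNAs and 0 members were called, and miR-155-5p was 0.42 for AM608 against RCD. The planned relations to miR-142a-3p and its arm ratio were not run.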
